A study of Mus musculus with 3 samples.

Results

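The small leucine-rich proteoglycans are described here through 10 genes, chosen by name: Dcn (decorin), Bgn (biglycan), Aspn (asporin), Lum (lumican), Fmod (fibromodulin), Prelp (prolargin), Omd (osteomodulin), Ogn (osteoglycin), Epyc (epiphycan) and Podn (podocan). Each was measured by 1 probe set, a group of array probes summed to 1 value, so that 10 of the 19938 genes measured are described. The family was singled out because Ogn and Aspn were brighter on the array labelled tumor while Fmod was bright on the array labelled control. The values of the 3 arrays are therefore a description and support no test.

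Expression was measured in mouse sarcoma material on 3 Affymetrix MoGene-1_0-st-v1 arrays, 1 per group. All 3 come from animals of a mixed C57/BL6, 129 and ICR strain that carry an EWS/ATF1 transgene inducible by doxycycline. EWS/ATF1 is the fusion of EWSR1 with the CREB family factor ATF1 that is found in human clear cell sarcoma. By its description, the array labelled control carries RNA of cultured tumor cells without doxycycline (0 microg/ml, 24 h). The array labelled high doxycycline is described as RNA of such cells after 24 h in 0.2 microg/ml. The array labelled tumor is described as RNA of 1 tumor resected from a mouse given doxycycline for 3 months. The descriptions give both cultured samples one number and the tumor another, and the labels do not name the promoter that drives the transgene. Each group rests on a single array, so that differences have neither a test nor a replicate check, and precision is limited by the number of arrays.

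Small leucine-rich proteoglycans are secreted matrix proteins with a curved core of leucine-rich repeats, many of which carry chondroitin, dermatan or keratan sulfate chains. In connective tissue they bind fibril-forming collagens and set the width and spacing of the fibrils, and several of them also bind growth factors such as TGF-beta or receptors at the cell surface. They are made above all by fibroblasts, tendon cells, cartilage cells and bone cells, and decorin, lumican and osteoglycin are common markers of connective tissue fibroblasts.

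The labels of the arrays did not match the cell types seen in them. On the array labelled control, all 10 macrophage markers, 7 of 8 endothelial markers and all 8 skeletal muscle markers exceeded the array median, against 1, 0 and 3 on the array labelled tumor and 2, 0 and 4 on high doxycycline. None of these markers was at 0 on any array. Directions are therefore given between arrays named by their labels, and say nothing of the treatments or the tumor as such. In such bulk RNA, fewer cells of a type and less RNA per cell cannot be told apart. Over all 19938 genes the log2 differences had a standard deviation of 0.30 between tumor and high doxycycline. It was 0.82 between high doxycycline and control and 0.88 between tumor and control. The shares of probe sets with identical values were 34.6%, 21.6% and 16.9% in that order. The array medians differed too. Setting them equal would raise every log2 difference by 0.14 for high doxycycline over control, by 0.19 for tumor over control and by 0.044 for tumor over high doxycycline. Probe sets of 1 gene disagreed in log2 difference by a median of 0.37, 0.38 and 0.055 in these comparisons, and this was the only measure of error inside the data. It could not be had for the 10 genes, since each has a single probe set. Differences are between log2(intensity + 1) values, a gene is called bright in a comparison where the brighter array lies above its own median, and folds of at least 2 are counted.

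The array median was exceeded by 7 of the 10 genes on the array labelled control, by 3 on high doxycycline and by 7 on tumor. On high doxycycline 0 of 10 were at least 2-fold brighter than on control and 6 were at least 2-fold dimmer, where 17.5% and 8.46% of 11934 bright genes were called in these directions. On the array labelled tumor 1 gene was at least 2-fold brighter than on control and 4 were at least 2-fold dimmer, against 18.6% and 10.2% of 12011 bright genes. Against high doxycycline, 2 were at least 2-fold brighter on tumor and 0 dimmer, against 1.6% and 1.94% of 11212 bright genes. Of the 10 genes 7, 8 and 7 were bright in these comparisons and could be called. Dimmer calls were 85.7%, 50% and 0% of them, and brighter calls 0%, 12.5% and 28.6%. The 10 genes were chosen with these values known, so nothing is read from these counts and shares. The first 2 comparisons share the array labelled control, the first and the last share high doxycycline, and the last 2 share tumor.

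**Figure D1:**
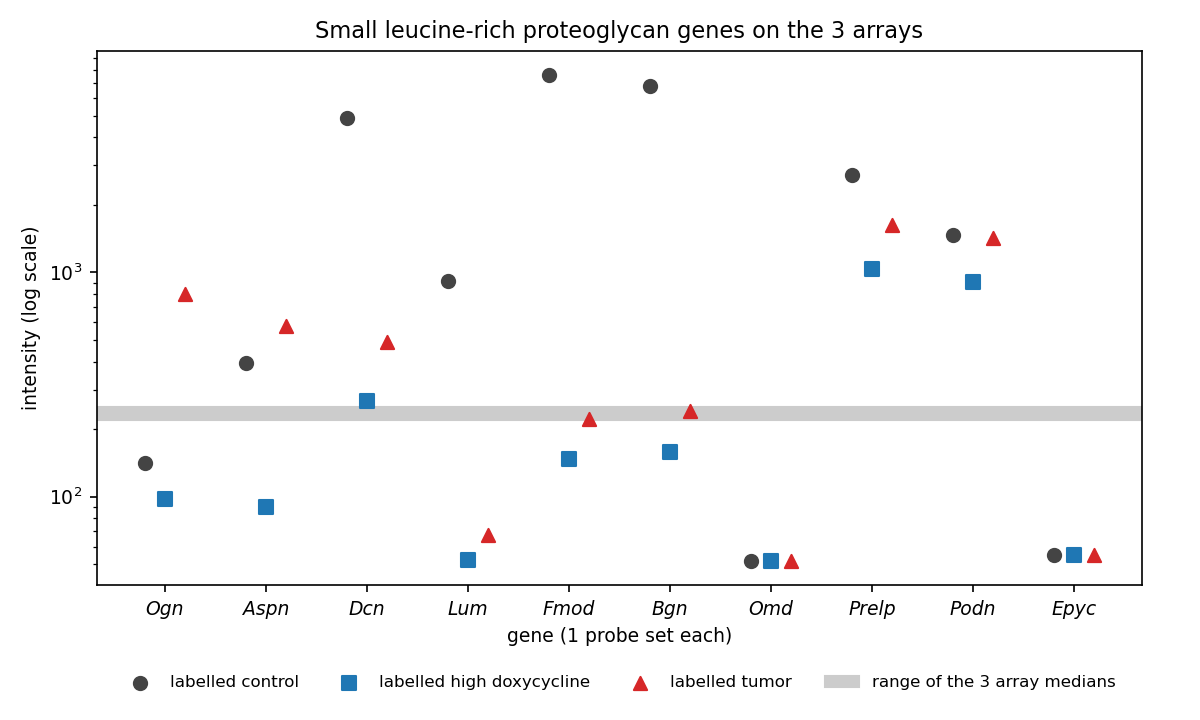
Intensity of the 10 proteoglycan genes on a log axis, with 1 point per array and the range of the 3 array medians as a grey band. Fmod, Bgn and Dcn stand far above the band on the array labelled control (4867 to 7578), Ogn lies above it only on the array labelled tumor (804), and Omd and Epyc lie below it with the same value on all 3 arrays.

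Osteoglycin and asporin were the members with their highest value on the array labelled tumor. Ogn, whose product binds collagen fibrils and is also known as mimecan, had an intensity of 141 on control, against 98.1 on high doxycycline and 804 on tumor. Only the tumor value lay above the array median. It was 8.12-fold brighter on tumor than on high doxycycline (log2 difference 3.02), the largest increase among the 11212 bright genes of that comparison, and 5.68-fold brighter than on control (log2 difference 2.51), rank 190 of 12011. Aspn, a decorin relative with an aspartate-rich stretch that binds calcium and TGF-beta, had 395 on control, against 90.4 on high doxycycline and 579 on tumor. Its low value was the one on high doxycycline, from which tumor differed by 6.35-fold (log2 difference 2.67, rank 4 of 11212) and control by 4.33-fold. Between tumor and control Aspn differed by 1.46-fold (log2 difference 0.55), under the 2-fold limit. The disagreement between probe sets of 1 gene had a percentile 90 of 1.54 in this comparison, and this difference lies inside that spread. Both genes thus were highest on tumor and lowest on high doxycycline, but Ogn was low on control and Aspn was not.

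Ogn and Aspn lie next to each other on mouse chromosome 13, separated only by Omd among protein-coding genes, with Ecm2, another leucine-rich repeat matrix gene, on the far side of Aspn (RefSeq gene order, GRCm38.p6). Omd, the bone proteoglycan osteomodulin, had 51.6 on each of the 3 arrays, below the median of each. Ecm2 had 97.5, 75.7 and 97.5 on control, high doxycycline and tumor, also below every median. Against high doxycycline, Ogn and Aspn were at least 2-fold brighter on tumor, as were 1.6% of all bright genes. Against control Ogn was at least 2-fold brighter, as were 18.6% of all bright genes. Ecm2 and Omd did not pass the brightness filter and could not be called. Against high doxycycline Ecm2 was higher on tumor by 0.36 on the log2 scale, and Omd carried identical values. The family was singled out partly for Ogn and Aspn, so nothing about the cluster is read from these calls. Cenpp, a centromere protein gene whose RefSeq model spans all 4, had 84.6 on each array, which is the value of its own probe set. Of the flanking genes, the nucleolar gene Nol8 had 476, 799 and 799 and Ippk, an inositol phosphate kinase gene, had 265, 463 and 394, neither with its highest value on tumor alone.

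RefSeq promoter sequences were found for 8 of the 10 genes, without Dcn and Lum. The 250 bases before the start of Aspn, Omd and Ogn are shown because these neighbours on chromosome 13 parted on the array labelled tumor. All 3 are on the plus strand of GRCm38.p6, at chr13:49544193-49544442, chr13:49582212-49582461 and chr13:49607765-49608014, and end at the base before the start. Capitals mark the letters TATAAA and CANNTG, the TATA box and the E-box, on either strand.
Aspn: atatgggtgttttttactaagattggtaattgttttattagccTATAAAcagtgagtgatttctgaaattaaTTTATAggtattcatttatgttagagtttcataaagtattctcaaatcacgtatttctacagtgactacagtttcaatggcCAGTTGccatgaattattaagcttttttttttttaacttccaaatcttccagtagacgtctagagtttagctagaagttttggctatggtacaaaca
Omd: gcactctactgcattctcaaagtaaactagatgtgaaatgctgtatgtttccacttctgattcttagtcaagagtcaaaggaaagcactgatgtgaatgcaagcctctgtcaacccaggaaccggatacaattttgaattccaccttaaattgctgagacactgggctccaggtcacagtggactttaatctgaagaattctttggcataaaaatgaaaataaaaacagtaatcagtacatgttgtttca
Ogn: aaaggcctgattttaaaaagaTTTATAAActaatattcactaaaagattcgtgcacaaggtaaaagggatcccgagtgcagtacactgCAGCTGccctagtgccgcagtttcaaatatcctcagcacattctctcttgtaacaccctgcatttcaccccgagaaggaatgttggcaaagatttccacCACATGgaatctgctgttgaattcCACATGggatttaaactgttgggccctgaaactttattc
In the Ogn window TATAAA began 227 bases before the start, overlapped by its reverse complement TTTATA at 229, and CANNTG began at 162, 63 and 39. In the Aspn window TATAAA began at 207, TTTATA at 178 and CANNTG at 97. The Omd window held neither. Of all 32851 RefSeq promoter windows of this length, 12.4% held TATAAA and 66.2% held CANNTG. The letters TGACGTCA of the cAMP response element (in 1.55% of all windows), its short form TGACG, which lies inside it (17.8%), and TGANTCA of the AP-1 site (6.75%) were also searched on both strands and were not in the windows of these 3 genes. The share of G and C was 30% for Aspn, 38.4% for Omd and 42.0% for Ogn, against a median of 52.4% over all windows. These matches describe letters in the windows and do not show binding.

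Fibromodulin and biglycan were the members that differed most between the array labelled control and the others. Fmod, a keratan sulfate proteoglycan that binds type I collagen in tendon and other dense tissue, had 7578 on control, against 148 on high doxycycline and 223 on tumor. It was 50.9-fold dimmer on high doxycycline than on control (log2 difference -5.67, rank 7 from the dimmest of 11934) and 33.9-fold dimmer on tumor (-5.08, rank 13 of 12011). Bgn, a chondroitin or dermatan sulfate proteoglycan that also acts on toll-like receptors when released from matrix, had 6752, 158 and 242 in that order. Its log2 differences were -5.41 for high doxycycline against control (42.4-fold, rank 9) and -4.80 for tumor against control (27.8-fold, rank 23). On high doxycycline both lay below the array median of 226.7, and on tumor both lay just above the median of 219.8. Their values on tumor were 2.94% and 3.58% of those on control.

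Decorin and lumican, which lie side by side on chromosome 10, were also brightest on the array labelled control. Dcn, the best known collagen-binding member and an antagonist of TGF-beta and of several growth factor receptors, had 4867, 267 and 491 on control, high doxycycline and tumor. It was 18.2-fold dimmer on high doxycycline than on control (log2 difference -4.18) and 9.90-fold dimmer on tumor (-3.31). It stayed above the median of every array. Lum, the keratan sulfate proteoglycan of cornea and skin, had 914, 52.4 and 67.3, and was 17.1-fold dimmer on high doxycycline than on control (log2 difference -4.10) and 13.4-fold dimmer on tumor (-3.74). Lum lay above the median on control only. The 2 genes that follow on the chromosome were flat: Kera (keratocan, the corneal member) had 75.4, 75.4 and 80.2, and Epyc, a proteoglycan of growth plate cartilage, had 55.2 on all 3 arrays.

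Prolargin and podocan differed least among the members that were bright on all 3 arrays. Prelp, which links basement membranes to the collagen below through a heparin-binding end, had 2720.1 on control, against 1035 on high doxycycline and 1619.8 on tumor. It was 2.63-fold dimmer on high doxycycline than on control (log2 difference -1.39) and 1.68-fold dimmer on tumor (-0.75). The latter difference reached -1.01 under quantile normalization. Both lie inside the percentile 90 of the disagreement between probe sets of 1 gene, which was 1.40 and 1.54 in these comparisons. Podn, a member first described in the kidney and smooth muscle, had 1465, 907 and 1422. It was 1.61-fold dimmer on high doxycycline than on control. On tumor it differed from control by -0.043 on the log2 scale, which turned to 0.14 with equal array medians and to -0.32 under quantile normalization. That normalization took the log2 difference of Podn for high doxycycline against control from -0.69 to -0.97. Both Podn differences also lie inside that spread. Prelp lies between Optc (opticin, of the eye) and Fmod on chromosome 1. Optc had 111, 111 and 103, below every median. These 3 neighbours of 1 family gave log2 differences of 0, -1.39 and -5.67 for high doxycycline against control. The 0 rests on identical Optc values below the median and does not measure equal RNA.

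**Figure D2:**
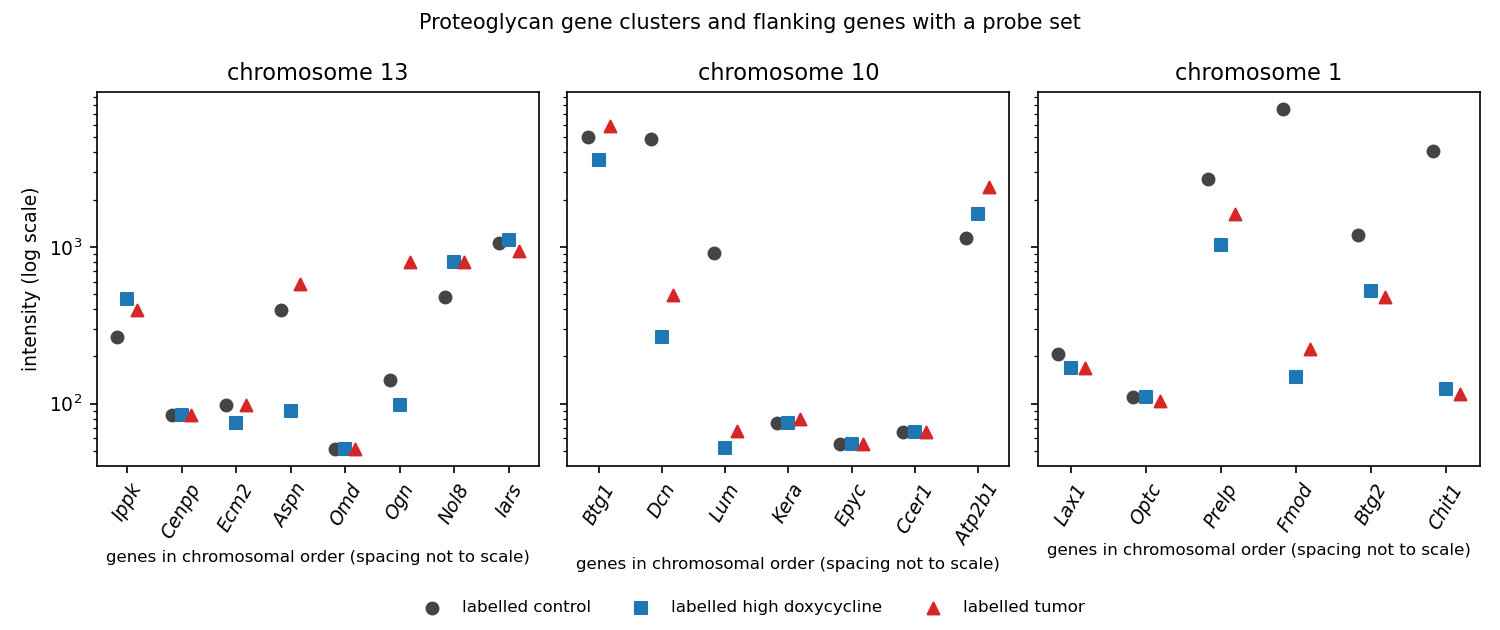
Intensity on a log axis for the genes of 3 chromosomal clusters and the flanking protein-coding genes with a probe set, in chromosomal order and with 1 point per array. On chromosome 13 Aspn and Ogn are highest on the array labelled tumor while Omd between them is flat at 51.6; on chromosome 10 Dcn and Lum part from the flat Kera and Epyc.

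The 250 bases before the starts of Fmod and Bgn are shown because these genes differed most from the array labelled control, at chr1:134037004-134037253 and chrX:73483351-73483600 on the plus strand of GRCm38.p6, with CANNTG again in capitals.
Fmod: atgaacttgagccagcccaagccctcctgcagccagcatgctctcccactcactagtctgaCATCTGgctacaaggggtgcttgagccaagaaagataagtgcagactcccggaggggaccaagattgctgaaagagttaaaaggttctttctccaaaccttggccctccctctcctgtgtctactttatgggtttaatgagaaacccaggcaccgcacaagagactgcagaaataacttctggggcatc
Bgn: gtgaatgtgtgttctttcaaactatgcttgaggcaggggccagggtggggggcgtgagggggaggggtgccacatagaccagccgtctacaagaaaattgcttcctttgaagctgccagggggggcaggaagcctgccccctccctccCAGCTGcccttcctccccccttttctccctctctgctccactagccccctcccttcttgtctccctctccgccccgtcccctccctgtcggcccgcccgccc
CANNTG began 189 bases before the start of Fmod and 102 before that of Bgn. The share of G and C was 51.2% for Fmod and 64.4% for Bgn. The letters of the TATA box, of both forms of the cAMP response element and of the AP-1 site were not in either window, nor in those of Prelp, Podn and Epyc.

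Most of the 10 genes had a higher value on tumor than on high doxycycline, which is given as a description only. The choice of the family rested partly on the high tumor values of Ogn and Aspn, which are among these genes. Nothing about the family as a whole is therefore read from the counts, shares and median that follow. Of the 10 genes, 8 were brighter on tumor by some amount, 0 were dimmer and 2 were identical, where 22.2% of all 19938 genes were brighter by some amount and 6791 were identical. The median log2 difference over the 10 genes was 0.63, against 0 over all genes. Besides Ogn and Aspn these were Dcn (1.84-fold, log2 difference 0.88), Podn (1.57-fold), Prelp (1.56-fold), Bgn (1.52-fold), Fmod (log2 difference 0.59) and Lum (1.28-fold, below both medians). At a limit of 1.5-fold, chosen after the values were seen, all 7 members that were bright were brighter on tumor. Over all 11212 bright genes this share was 4.23%. Fmod lay only just inside that limit. Dcn was the gene nearest to the 2-fold limit from below.

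**Figure D3:**
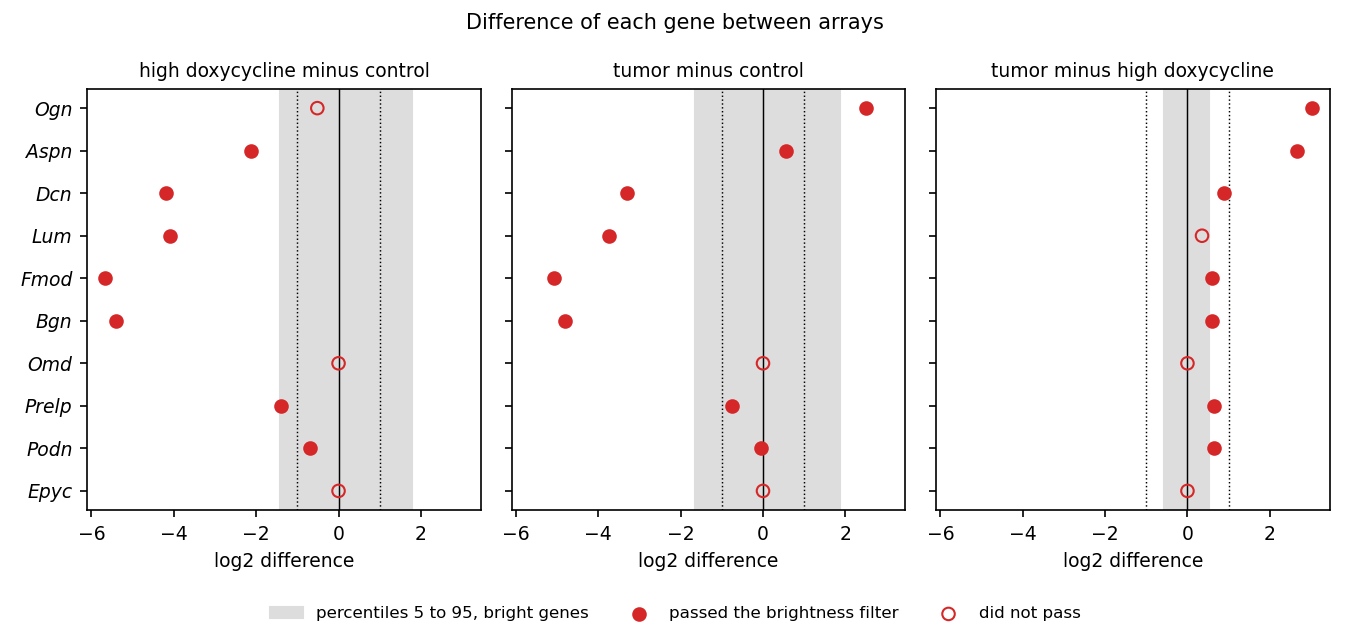
Log2 difference of each gene between arrays, 1 panel per comparison, with dotted lines at 2-fold and the percentiles 5 to 95 of all bright genes in grey. Open points did not pass the brightness filter; Ogn at 3.02 and Aspn at 2.67 lie farthest right between tumor and high doxycycline, and Fmod at -5.67 farthest left between high doxycycline and control.

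The genes most like each of 4 members were sought by the Euclidean distance between log2 values over the 3 arrays, each gene set to its own mean, among 11731 genes above the median of at least 1 array. With 3 arrays many genes lie close to any pattern. Nearest to Ogn were Inmt, a methyltransferase gene (319, 216 and 1218 on control, high doxycycline and tumor, distance 0.45), the aquaporin gene Aqp8 (distance 0.51), the flavin monooxygenase gene Fmo1 (0.58) and the angiopoietin gene Angpt1 (0.67). Aspn was at rank 113. Nearest to Aspn were the lymphatic growth factor gene Vegfd (549.9, 231 and 1041, distance 0.61), Coro6 (0.88), Cyp2d22 (0.92) and Txnip (0.92). Nearest to Fmod was Sparc, the gene of another collagen-binding matrix protein, with 12545, 243 and 398 and a distance of 0.096, followed by Bgn (0.22), the complement inhibitor gene Serping1 (0.29) and Prg4 (0.37), the gene of the joint lubricant lubricin. Nearest to Dcn were the matrix genes Postn (0.24) and Aebp1 (0.38), Igfbp4, a binding protein of insulin-like growth factors (0.38), and its neighbour Lum (0.40). Fmod and Dcn each had a family member among their nearest 4, and Ogn and Aspn had none.

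The collagens and other fibril genes that these proteoglycans bind were dimmer on both arrays than on control, as most of the proteoglycans were. Of 17 measured, 14 were at least 2-fold dimmer on high doxycycline than on control and 12 on tumor, with 0 brighter. All 17 were bright in both comparisons. The dimmer calls were thus 82.4% and 70.6%, beside 8.46% and 10.2% of all bright genes. The median log2 differences of these 17 were -1.78 in each comparison, beside 0.083 and 0.076 over all bright genes. Col1a1, a chain of type I collagen, had 10029.9 on control, against 343 on high doxycycline and 332 on tumor, and Col3a1, of type III collagen, had 4257, 237 and 274. The other type I chain, Col1a2, was 37.2-fold dimmer on tumor than on control, and the matrix gene Thbs1 17.0-fold. Between tumor and high doxycycline few of these genes differed by 1.5-fold or more. The type VI collagen gene Col6a1 (584 on high doxycycline, 1249 on tumor) was the 1 of 17 that was at least 2-fold brighter. This was 9.09% of the 11 that were bright, beside 1.6% of all bright genes. At the limit of 1.5-fold, 2 of these 11 were brighter and 0 dimmer, where 4.23% of all bright genes were brighter. The second was Col6a2, with 1170 on high doxycycline and 1839 on tumor (1.57-fold). The median was -0.089 over all 17 and 0.0053 over the 11 that were bright. The proteoglycan median of 0.63 in that comparison and the collagen median of -0.089 stand side by side as descriptions, and their difference could not be tested with 1 array per group.

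The enzymes that build the sugar chains were called in both directions. Of 22 measured enzymes of the chain linker and of chondroitin or dermatan sulfate, 3 were at least 2-fold brighter and 2 dimmer on high doxycycline than on control, 2 brighter and 4 dimmer on tumor than on control, and 0 differed by 2-fold between tumor and high doxycycline. Of the 19 that were bright on high doxycycline or control this was 15.8% brighter and 10.5% dimmer, near the 17.5% and 8.46% of all bright genes. The counts for that comparison became 1 and 2 with a pseudocount of 64, and 0 and 0 with the brightness filter at percentile 75. Of the 19 that were bright on tumor or control 10.5% were brighter and 21.1% dimmer, beside 18.6% and 10.2% of all bright genes. Of the 17 that were bright on tumor or high doxycycline it was 0% each, beside 1.6% and 1.94%. Csgalnact1, which starts chondroitin chains, was 3.53-fold dimmer on high doxycycline than on control and 4.29-fold dimmer on tumor. B3galt6, of the linker, was 3.38-fold and 2.61-fold brighter. The chondroitin sulfotransferase gene Chst15 was 2.38-fold and 2.41-fold dimmer, and Xylt1, which adds the first sugar of the linker, had 366, 186 and 155. Among 7 keratan sulfate enzymes, B3gnt2, which extends the chain, was 2.45-fold brighter on tumor than on high doxycycline and 3.25-fold brighter than on control. The sulfotransferase gene Chst1 was 2.10-fold and 2.25-fold dimmer than on control, both under 2-fold with equal array medians.

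Receptors and bound growth factors were called in both directions too. Of 19 measured, 2 were at least 2-fold brighter and 3 dimmer on high doxycycline than on control, 1 brighter and 7 dimmer on tumor than on control, and 0 brighter and 2 dimmer on tumor than on high doxycycline. Of the 15 that were bright on high doxycycline or control this was 13.3% brighter and 20.0% dimmer, beside 17.5% and 8.46% of all bright genes. Of the 15 that were bright on tumor or control it was 6.67% and 46.7%, beside 18.6% and 10.2%. Of the 13 that were bright on tumor or high doxycycline it was 0% and 15.4%, beside 1.6% and 1.94%. Lrp1, an endocytic receptor of decorin, was 6.05-fold dimmer on high doxycycline than on control and 6.83-fold dimmer on tumor. Met, a receptor kinase that decorin binds, had 435, 1868 and 1244 on control, high doxycycline and tumor. Cd14, a toll-like receptor partner used by biglycan, had 650.3, 914 and 158, and the ATP receptor gene P2rx7, another biglycan partner, had 2027, 2490.0 and 797. The latter were the 2 genes dimmer on tumor than on high doxycycline, by 5.75-fold and 3.12-fold.

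Of 12 genes of proteases that cleave the core proteins or of their helpers, 5 were at least 2-fold dimmer on high doxycycline than on control and 5 on tumor, with 0 brighter. Of the 9 that were bright in each comparison this was 55.6% dimmer, beside 8.46% and 10.2% of all bright genes. Mmp2, a gelatinase, was 25.6-fold and 29.3-fold dimmer, the stromelysin gene Mmp3 9.72-fold and 11.5-fold, and the collagenase gene Mmp13 4.55-fold and 4.68-fold. Adamts5, an aggrecanase, had 1053, 147 and 331 on control, high doxycycline and tumor, and was the 1 gene of this list that was at least 2-fold brighter on tumor than on high doxycycline (2.25-fold). It was 16.7% of the 6 that were bright there, beside 1.6% of all bright genes. With a pseudocount of 64 the count of brighter genes in that comparison became 0.

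Proteoglycans outside the family resembled it only in part. Of 26 measured, 8 were at least 2-fold dimmer on high doxycycline than on control and 8 on tumor, and 2 and 1 were brighter. Of the 21 that were bright in each comparison this was 38.1% dimmer in both, beside 8.46% and 10.2% of all bright genes. The brighter shares were 9.52% and 4.76%, beside 17.5% and 18.6%. Prg4 was 35.8-fold dimmer on high doxycycline than on control and the glypican gene Gpc3 12.0-fold. Srgn, the serglycin of blood cell granules, had a log2 difference of -4.46. Spock3, a testican gene of nervous tissue, had 259 on control, against 1058 on high doxycycline and 1817 on tumor. Between tumor and high doxycycline 1 of 26 was at least 2-fold brighter, the syndecan gene Sdc2 (575 on high doxycycline, 1406 on tumor; named after its values were seen), and 0 were dimmer. The 1 brighter gene was 5.56% of the 18 that were bright there, beside 1.6% of all bright genes. The median over all 26 was -0.012 in that comparison, and turned to 0.032 with equal array medians. The 7 further small leucine-rich genes measured, among them Kera, Optc and Ecm2, held 0 calls in any comparison, but only 1 of them, Nyx, passed the brightness filter, so that the other 6 could not be called.

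**Figure D4:**
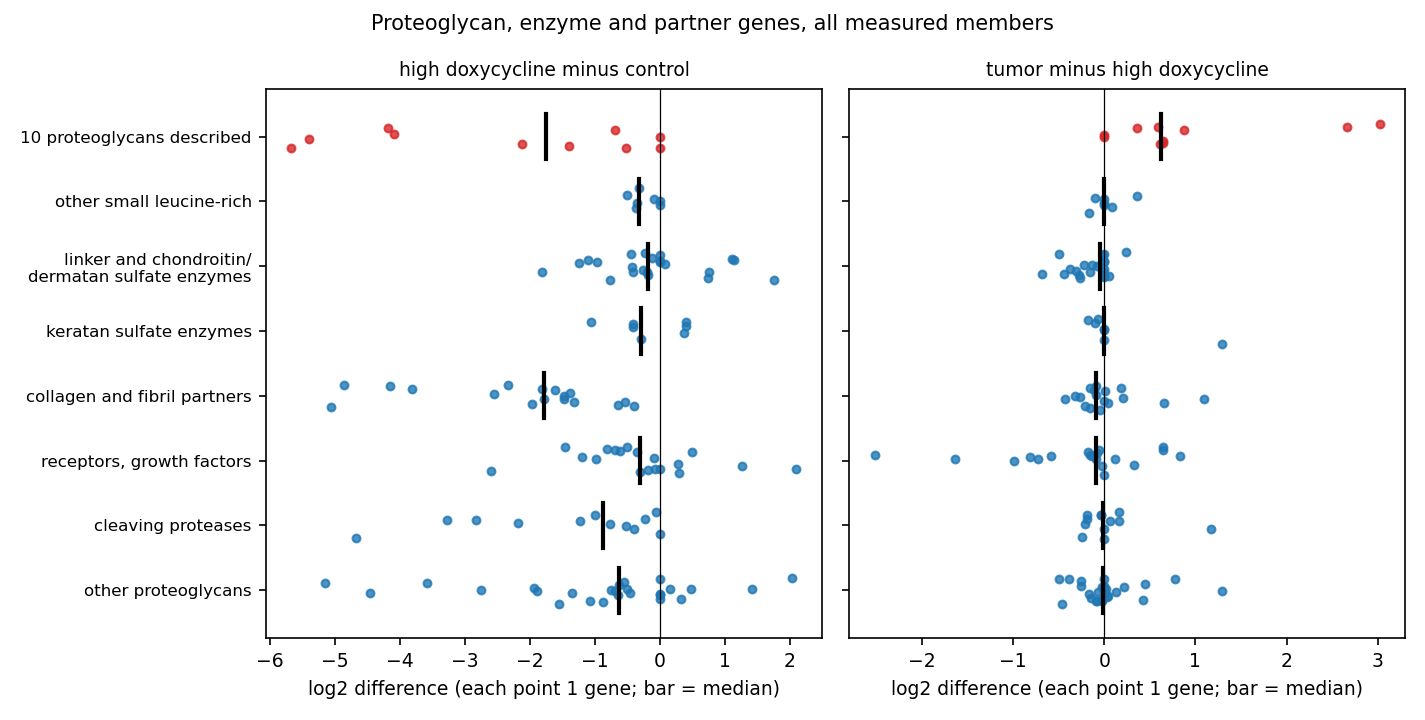
Log2 differences of all measured genes of each list, 1 point per gene and a bar at the median, for high doxycycline against control and tumor against high doxycycline. In the first panel the 10 proteoglycans lie at or left of 0 and the collagen partners left of it (medians -1.75 and -1.78). In the second the proteoglycans lie at or right of 0 (median 0.63) and the collagen partners around it (-0.089).

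Cell type markers moved with the values of the proteoglycans on the array labelled control, and their part in the result was not tested. The summed intensity of the 10 genes on control, high doxycycline and tumor was 24939.7, 2863 and 5553. In that order it was 21397, 5708 and 5140.2 for 12 fibroblast markers, of which 11, 3 and 4 lay above the median. It was 24387, 2259 and 1220.0 for 10 macrophage markers, 7861, 1115 and 1043 for 8 endothelial markers, 30494, 1673 and 1455 for 8 skeletal muscle markers and 5145, 1148 and 1102 for 7 markers of smooth muscle and pericytes. Such sums can lean on 1 bright gene. Among the fibroblast markers that gene was Pi16, a peptidase inhibitor gene, with 3891, 3891 and 3115, and without it the other 11 summed to 17505, 1817 and 2025. Between tumor and high doxycycline the macrophage, endothelial, skeletal muscle and smooth muscle sums were lower on tumor, with and without the brightest gene of each list. The fibroblast sum was lower on tumor with Pi16 and higher without it, as the sum of the 10 proteoglycans was. Of the 12 fibroblast markers, 5 were brighter on tumor than on high doxycycline by some amount and 7 were dimmer. Their median log2 difference was -0.069. Postn was the fibroblast marker with the greatest increase, at 3436, 163 and 272, followed by the receptor gene Pdgfra at 1102, 253 and 360.4. Both were highest on control and lowest on high doxycycline, as Dcn was.

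Markers of tissues that are rich in these proteoglycans differed in direction among themselves. Of the 6 tendon markers, Egr1 had 1088, 569 and 377, Thbs4 had 639.5, 118 and 111, Scx had 375, 211 and 194 and Tnmd had 100.2, 100.2 and 95.1. Mkx, a tendon transcription factor gene, was instead lowest on control with 355, 545 and 558, and Kera, which is on this list too, is given above. Of the 7 cartilage markers, Sox9 had 2888, 3167 and 2337 and Col2a1 had 509, 323 and 292. Hapln1, with 138, 100.3 and 138, and the other 4 lay below the median of every array. These other 4 were not higher on tumor than on high doxycycline. The bone marker Alpl had 1825, 6162 and 5954, with the other 4 measured bone markers between 53.6 and 130.2 on all arrays. The neural crest and Schwann cell markers summed to 3097, 5574 and 9173 over 6 genes. Ngfr, the nerve growth factor receptor gene, was the brightest of them on tumor with 669, 957 and 4449.6, and the other 5 summed to 2428, 4617 and 4724. Of these, Sox10 (253, 222 and 200.2) and Mitf (1281, 1344 and 1018) were lower on tumor than on high doxycycline, and Dlx1, Dlx2 and Twist1 were higher.

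**Figure D5:**
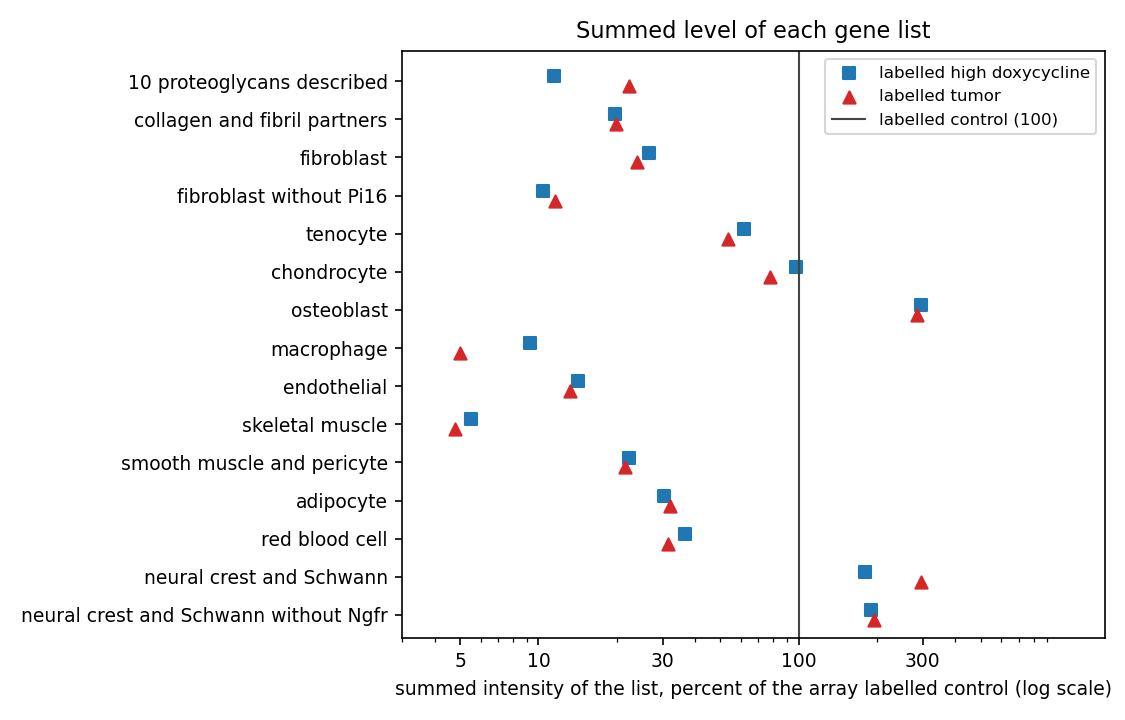
Summed intensity of each gene list as a percentage of the array labelled control, on a log axis, for the arrays labelled high doxycycline and tumor. The 10 proteoglycans stand at 11.5% and 22.3%, the collagen partners at 19.7% and 19.8% and the fibroblast markers at 26.7% and 24.0%, or at 10.4% and 11.6% without Pi16.

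Identical values limit what the flat members show. Omd and Epyc belong to the 15.0% of probe sets with the same value on all 3 arrays, a share of 25.7% among probe sets below every array median and 6.26% among the others. The files do not say how such equal values arose. The flat values of Omd and Epyc are therefore not a measurement that their RNA was equal in the 3 samples. The same limit holds for Kera and Optc, whose values were identical on control and high doxycycline and below every median. It holds too for Cenpp, identical on all arrays, and Ecm2, identical on control and tumor, both below every median. Nol8 also had identical values on high doxycycline and tumor, though above the medians.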

How the data were processed

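Total RNA was labelled with biotin and hybridised to 3 arrays, whose titles gave their groups. The table deposited by the authors holds 1 linear intensity for each probe set and array. Background correction, probe summary and normalization are not given in the sources used here. Probe sets were named through the platform annotation where they had 1 symbol (21789 of 28856; 1621 had several and 5446 none), of which 21698 matched a RefSeq gene table by Entrez number. Where a gene had several probe sets (999 genes), the brightest on average stood for it. Differences were taken between log2(intensity + 1) values, so that folds understate changes of dim genes. A gene was bright where the brighter array lay above its percentile 50. The computation was checked on simulated data. Python 3.11.15, pandas 2.3.3 and numpy 2.4.6 were used.

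The members and lists were chosen with earlier results of these data known. Named genes were all members, up to 4 called genes of each list with the largest difference, and the 4 nearest genes of Ogn, Aspn, Fmod and Dcn. Flanking genes, list members given for context and cell type markers were named after their values were seen. Alternatives were 2 normalizations, 2 pseudocounts, 2 brightness filters, the mean over probe sets and, chosen after seeing the data, a limit of 1.5-fold and marker sums without the brightest gene of each list.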

Additional observations from a re-analysis of the deposited data

How the results depend on the processing

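No called difference of the 10 genes changed sign under the 7 alternatives, and 5 of 210 calls changed. With the brightness filter at percentile 75 the count of brighter members became 0 on tumor against control and likewise 0 against high doxycycline, since Ogn and Aspn lay below that percentile, and the dimmer call of Aspn on high doxycycline was lost (6 became 5). Quantile normalization added Prelp to the genes dimmer on tumor than on control (-1.01). With a pseudocount of 64 the median over the 10 genes for tumor against high doxycycline was 0.54, and with a limit of 1.5-fold 7 members were brighter there. Of 1134 values of the lists, 1093 stayed within 1.5 times the count or within the disagreement of probe sets. Without the brightest gene of each marker list, chosen after seeing the data, the log2 ratio of summed intensity of tumor over high doxycycline turned from -0.15 to 0.16 for fibroblast and from 0.080 to -0.12 for adipocyte markers. No paired analysis was possible because each group has 1 array. With 1 array per group and no detection calls used, the depth of the dim values, such as those of Omd and Epyc, is unknown.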
